A study of Mus musculus with 12 samples.

Results

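The cytosolic ribosomal protein genes encode the proteins of the large (Rpl genes, with the stalk genes Rplp0, Rplp1 and Rplp2) and small (Rps genes, with Rpsa) subunits of the ribosome outside mitochondria. The family was chosen with earlier results of these data known. Its members were taken by symbol alone: every protein-coding gene of the table with an Rpl, Rps, Rplp or Rpsa symbol was taken, and the Rps6k kinases and 6 pseudogenes with similar symbols were left out. This gave 84 of the 53707 genes in the table, of which 52 belong to the large and 32 to the small subunit. Retinas came from wild-type C57Bl/6J mice at 28 days of age. They were freed of sclera and retinal pigment epithelium, kept for 48 hours in culture medium with 5 mM or 25 mM glucose, and then placed in a salt solution before RNA was isolated. There were 3 biological replicates at each concentration, and each had technical replicates a (batch 1 in the labels) and b (batch 2), which made 12 libraries. Only wild-type tissue was used, and the labels do not say how many animals or retinas make up a replicate, so the p-values measure the spread between these samples.

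Ribosomal proteins surround the ribosomal RNA and help it to fold, and cells keep them in near-equal amounts because each ribosome holds a copy of nearly every protein. Their genes are among the most strongly transcribed in any cell. Most of their mRNAs begin with a short run of pyrimidines, the 5′ terminal oligopyrimidine (TOP) tract, through which the nutrient-sensing kinase mTORC1 controls their translation. Retinal neurons, above all the photoreceptors, rebuild large amounts of membrane protein each day and depend on this machinery.

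The promoters of the members held a pyrimidine string, CTCTTT, more often than those of all genes. It was counted anywhere in the promoter window, so its share does not show a TOP tract at the start. The letters CTCTTT were found on the sense strand within the RefSeq promoter window (GRCm38.p6, 250 bases before to 50 after the start) of 23 of 61 members with an entry (37.7%), beside 13.7% of 27025 genes. On either strand the same letters were in 28 of these 61 members (45.9%), beside 25.6% of all genes. The letters CCGGAAG, read by ETS factors such as GABP, were on either strand in 25 members (41.0%), beside 9.93% of all genes, and AAGATGGC, read by YY1, in 6 members (9.84%), beside 3.19%. The last 2 strings can share the letters AAG. The median GC content of the promoter windows was 58.8% for the members and 52.7% for all genes. A match of letters is a description of the sequence, not a bound site. The windows below hold CTCTTT near the start of 6 members that are described later, at positions from -35 (Rps24) to 5 (Rps26). They are shown because they include genes from both ends of the glucose comparison. Capitals mark the 6 letters, and each stretch runs 5′ to 3′ on the strand of the gene.
Rps24: cagtgagcggtcCTCTTTtcctcctctcca
Rpl5: ggcctacagccaCTCTTTctcacgtcgctt
Rps9: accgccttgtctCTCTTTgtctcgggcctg
Rpl28: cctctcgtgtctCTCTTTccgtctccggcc
Rps26: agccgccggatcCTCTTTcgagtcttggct
Rpl35: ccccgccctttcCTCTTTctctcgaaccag
These stretches lie at chr14:24490706-24490735 (plus strand), chr5:107900496-107900525 (plus strand), chr7:3704026-3704055 (plus strand), chr7:4792953-4792982 (plus strand), chr10:128626484-128626513 (minus strand) and chr2:39005114-39005143 (minus strand), in the order given. In Rps24 the C of CTCTTT at position 24490718 is also the first base of the annotated transcript Rps24-202.

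The libraries held between 14815285 and 36692484 gene counts each. Ribosomal protein genes took between 1.08% and 2.89% of these counts, and processed pseudogenes named after them took between 0.0878% and 0.291%. At 5 mM glucose the share was 1.87% and 1.72% in the a and b libraries of replicate 1, 2.89% and 2.80% in those of replicate 2, and 2.62% and 2.86% in those of replicate 3. At 25 mM glucose it was 1.70% and 1.08% in replicate 1, 1.43% and 1.67% in replicate 2, and 1.97% and 1.87% in replicate 3. The 25 mM libraries were all below the 4 libraries of 5 mM replicates 2 and 3, whereas both libraries of 5 mM replicate 1 lay inside the 25 mM range. With a and b summed, the shares were 1.81%, 2.85% and 2.74% at 5 mM and 1.38%, 1.58% and 1.92% at 25 mM, so the groups overlapped through 5 mM replicate 1. Genes of the mitochondrial genome took 10.1%, 6.10% and 7.72% of the counts in the same 5 mM replicates and 8.96%, 12.3% and 7.98% in the 25 mM replicates. A share can be lower because other RNA is higher. In whole tissue, it can also be lower through fewer cells of a kind or less RNA per cell. These cannot be told apart, and the shares were not corrected for the trends with GC content described below.

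**Figure D1:**
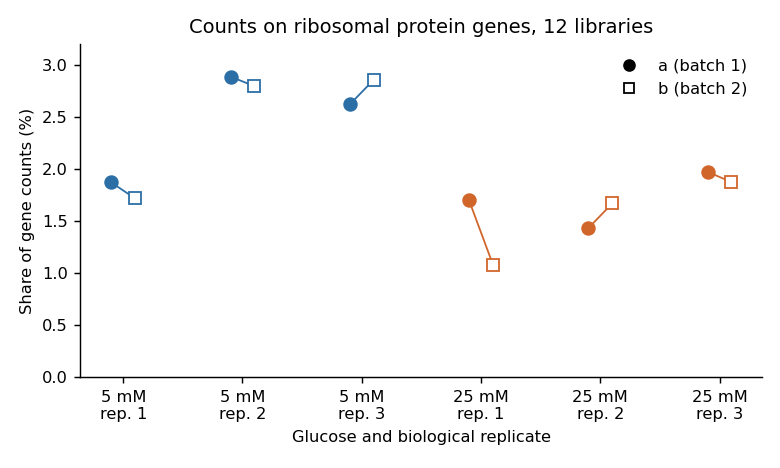
Percent of all gene counts taken by the 84 ribosomal protein genes (vertical axis) in each of 12 libraries, by glucose and biological replicate (horizontal axis). Filled circles are a libraries, open squares are b libraries and a line joins the pair. The 25 mM libraries lie between 1.08% and 1.97%, and both libraries of 5 mM replicate 1 (1.87% and 1.72%) lie within that range.

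Per length of transcript, the members differed widely in level. Expressed as TPM (the estimated counts divided by annotated transcript length and scaled to the same total in each library), the highest mean over 12 libraries was that of Rps24 (3035), followed by Rps4x (2106), Rps27 (1822), Rpl7 (1762), Rpl9 (1641) and Rps25 (1543). The lowest of the members that passed the filter on low counts was Rpl36 (36.3). There were 81 such members, 49 of the large and 32 of the small subunit. The 3 that did not pass were Rpl10l, Rpl39l and Rpl3l, paralogs that are known for expression in testis or muscle. Rpl10l had no estimated count in 9 of the 12 libraries and 2.02 at most, Rpl3l had none in 6 and 4.27 at most, and Rpl39l had none in 2 and 11.1 at most. A floor of 3 counts corresponds to between 0.0818 and 0.202 CPM in these libraries, which covers counting error only.

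The first comparison asked which members differed between retinas kept at 25 mM and at 5 mM glucose. Ribosomal protein genes were lower at 25 mM nearly throughout: 79 of 81 log2 fold changes were below 0, beside 50.7% of all genes. The median was -0.67, beside -0.01 over the 21061 genes tested. It was -0.66 for the large and -0.68 for the small subunit, so neither subunit stood apart from the other in its median. A log2 fold change under -1 was found in 26 members (32.1%), beside 9.27% of all genes. None of the members passed edgeR's quasi-likelihood test at an adjusted p under 0.05, in either direction, beside 0.513% of all genes lower and 1.47% higher. At an unadjusted p under 0.05, 54 of the 81 were lower (66.7%), beside 15.5% of all genes, and none was higher, beside 13.2%. The lowest adjusted p was 0.067, that of Rpl14, singled out here after its values were seen. DESeq2 called 22 members lower, beside 9.54% of all genes, and limma-voom called none, beside 0.565%. The stricter thresholds of an adjusted p under 0.01 with a fold change over 2 left no gene at all.

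The count of calls turned on the first 5 mM replicate. In 68 of the 81 members it was below both other 5 mM replicates, by a median of 0.66 on the log2 scale, and in 42 members its value lay inside the range of the 25 mM replicates. Replicates 2 and 3 at 5 mM were both above every 25 mM replicate in 71 members. Every 25 mM replicate was below every 5 mM replicate in 25 members (30.9%), beside 15.8% of all genes, and in none was the order the opposite, beside 16% of all genes. Without 5 mM replicate 1, edgeR's quasi-likelihood test called 59 members lower at an adjusted p under 0.05, beside 14.9% of all genes. Without any other replicate it called none, and without 5 mM replicate 1 and 25 mM replicate 2, which stood together in their transcripts, it called 17, beside 0.734% of all genes. Over all replicates, no filter on low counts gave 14 calls, beside 3.47% of all genes. A replicate block gave 1 (Rps2), beside 2.78%, but it pairs equal replicate numbers, and the labels do not say that these belong together. A fit of 12 libraries with a batch term gave 32, beside 7.86%. That fit counts a and b of a replicate as independent samples and so overstates the number of replicates.

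**Figure D2:**
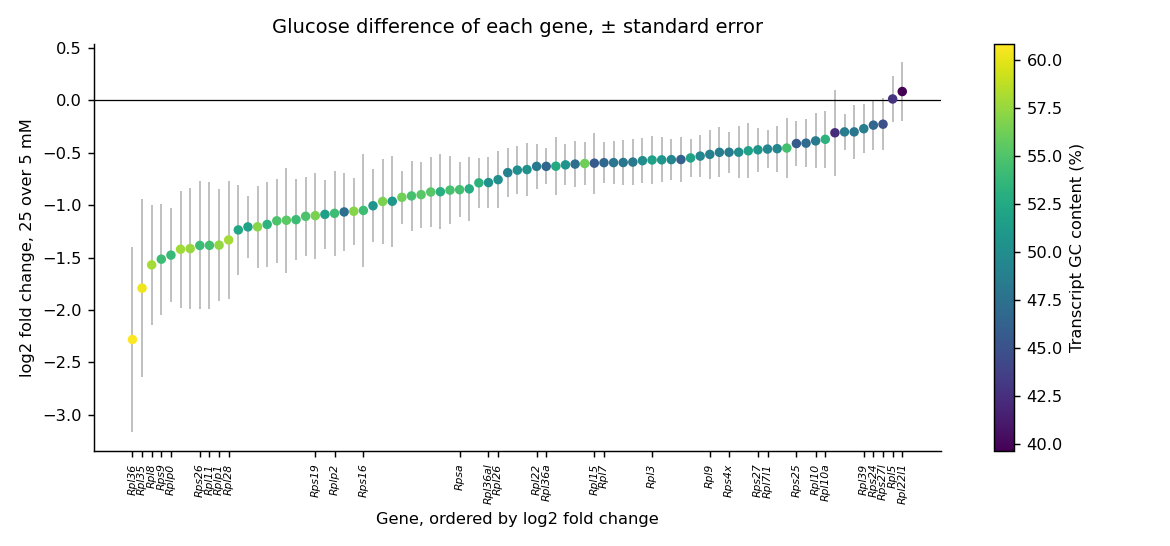
Log2 fold change of 25 mM over 5 mM glucose (vertical axis) with its standard error (grey bars) for the 81 members that passed the filter, ordered by value (horizontal axis, with names for the members taken by rule) and coloured by the GC content of their transcripts. All but Rpl5 and Rpl22l1 are below 0, and the GC-rich members gather at the low end.

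The acidic stalk of the large subunit, which recruits translation factors to the ribosome, is made of Rplp0, Rplp1 and Rplp2. Rplp0 measured 135, 474 and 398 CPM (counts scaled by library size with TMM) in the 5 mM replicates and 111, 84.0 and 166 in the 25 mM replicates. The 25 mM values were all below those of 5 mM replicates 2 and 3, and the groups overlapped through replicate 1. Its log2 fold change was -1.48 (SE 0.45, adjusted p = 0.090 by edgeR). Rplp1 measured 30.3, 172 and 118 CPM at 5 mM and 40.9, 29.1 and 52.7 at 25 mM, with a log2 fold change of -1.38 (SE 0.54, adjusted p = 0.140 by edgeR). Rplp2 measured 26.5, 81.5 and 67.7 CPM at 5 mM and 24, 21.7 and 37.5 at 25 mM, with a log2 fold change of -1.08 (SE 0.40, adjusted p = 0.130 by edgeR). In all 3 stalk genes the same 5 mM replicate was low.

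Among the large subunit proteins, the lowest log2 fold changes belonged to Rpl36, Rpl35 and Rpl8. Rpl36 measured 0.921, 19.1 and 12.8 CPM at 5 mM and 3.25, 1.20 and 2.28 at 25 mM. Its fold change of -2.28 (SE 0.89, adjusted p = 0.140 by edgeR) thus rested on replicates 2 and 3 at 5 mM, since replicate 1 was below all 25 mM replicates. Rpl35, near the exit of the peptide tunnel, measured 4.86, 71.6 and 64.2 CPM at 5 mM and 22.4, 5.88 and 12.3 at 25 mM (log2 fold change -1.79, SE 0.85, adjusted p = 0.202 by edgeR). Replicate 1 was again below every 25 mM replicate. Rpl8, near the peptidyl transferase centre, measured 37.5, 218 and 171 CPM at 5 mM and 52.7, 28.3 and 62.7 at 25 mM (log2 fold change -1.57, SE 0.57, adjusted p = 0.126 by edgeR).

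In the small subunit, Rps9 had the lowest value. It measured 51.8, 253 and 199 CPM at 5 mM and 65.1, 35.2 and 75.6 at 25 mM, with a log2 fold change of -1.52 (SE 0.53, adjusted p = 0.115 by edgeR). Rpsa, also known as the laminin receptor, measured 589, 1084 and 992 CPM at 5 mM and 442, 445 and 589 at 25 mM. Its groups met only at 5 mM replicate 1 and 25 mM replicate 3, which differed by less than 1 CPM, and its log2 fold change was -0.85 (SE 0.26, adjusted p = 0.093 by edgeR). Rps26 measured 14.3, 92.0 and 76.0 CPM at 5 mM and 24.7, 12.9 and 32.2 at 25 mM, with a log2 fold change of -1.38 (SE 0.61, adjusted p = 0.178 by edgeR). Between 80.7% and 96.3% of its transcript counts lay on transcripts annotated as noncoding. Counted on coding transcripts only, its log2 fold change had the opposite sign (0.52).

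The 6 most abundant members had log2 fold changes between -0.59 and -0.24. In 3 of them every 25 mM replicate was below every 5 mM replicate, beside 15.8% of all genes. Rps4x, an X-linked protein of the small subunit, measured 1211, 1200 and 1309 CPM at 5 mM and 719, 979 and 943 at 25 mM. Every 25 mM replicate was below every 5 mM replicate, and the log2 fold change was -0.49 (SE 0.20, adjusted p = 0.146 by edgeR). Rpl7 measured 1084, 1131 and 1279 CPM at 5 mM and 646, 801 and 868 at 25 mM, also with no overlap (log2 fold change -0.59, SE 0.20, adjusted p = 0.102 by edgeR). Rps27 did the same at a lower level, with 344, 384 and 422 CPM at 5 mM and 205, 304 and 321 at 25 mM (log2 fold change -0.47). Rpl9 (log2 fold change -0.51) and Rps25 (-0.41) overlapped between the groups.

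At the upper end stood Rpl22l1, Rpl5, Rps27l, Rps24 and Rpl39. Rpl22l1 measured 135, 74.7 and 83.0 CPM at 5 mM and 81.7, 135 and 94.8 at 25 mM, with a log2 fold change of 0.09 (SE 0.28, adjusted p = 0.859 by edgeR). Here 5 mM replicate 1 was the highest of its group, the reverse of the pattern in Rpl36. Rpl5, which carries 5S ribosomal RNA and binds the p53 regulator MDM2 together with Rpl11, measured 133, 80.2 and 90.5 CPM at 5 mM and 94.0, 120 and 92.8 at 25 mM (log2 fold change 0.01, SE 0.22). Its partner Rpl11 measured 24.5, 179 and 141 CPM at 5 mM and 53.1, 28.4 and 50.5 at 25 mM (log2 fold change -1.38, SE 0.61, adjusted p = 0.177 by edgeR). Rps24 measured 1071, 836 and 926 CPM at 5 mM and 592, 987 and 828 at 25 mM (log2 fold change -0.24, SE 0.23), with the groups overlapping. The positive signs of Rpl22l1 and Rpl5 turned negative with offsets for transcript length and GC content (-0.43 and -0.24) and in some other settings given at the end.

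Several members have a paralog among the genes chosen here. Rpl22 had a log2 fold change of -0.63 (SE 0.22) and its paralog Rpl22l1 0.09, with 205, 303 and 318 CPM of Rpl22 at 5 mM and 158, 169 and 207 at 25 mM. In 5 mM replicate 1 Rpl22 was the lowest of its group and Rpl22l1 the highest. Rps27 (-0.47) and Rps27l (-0.23), Rpl7 (-0.59) and Rpl7l1 (-0.46), and Rpl36a (-0.63) and Rpl36al (-0.78) had the same sign within each pair, and the differences between paralogs were not tested. Rpl36a measured 139, 165 and 174 CPM at 5 mM and 88.1, 112 and 109 at 25 mM, with no overlap and an adjusted p of 0.075 by edgeR. Rpl39 (-0.27), Rpl10 (-0.39) and Rpl3 (-0.57) were measured, while Rpl39l, Rpl10l and Rpl3l were under the filter. Reads shared by a member and its processed pseudogenes or paralog were divided by the authors' estimation, and how is not given in the sources used here.

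The members' differences followed the GC content of their transcripts. Across the 81 members, the log2 fold change and GC content had a Spearman correlation of -0.76 and a Pearson correlation of -0.80, a description across genes that share the same 6 replicates and their depth. The 4 members under 45% GC had a median log2 fold change of -0.11, the 26 from 45% to 50% one of -0.52, the 35 from 50% to 55% one of -0.86 and the 16 above 55% one of -1.18. All genes tested went the same way, with medians of 0.28, 0.05, -0.21 and -0.51 in these bands, so the median of the members was below that of all genes in each band. The gap between 5 mM replicate 1 and the mean of the other 5 mM replicates also followed GC content, with a Spearman correlation of -0.81. The part of GC content in the glucose difference was not tested apart from the offsets described next.

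With offsets that removed the trend of each library with GC content and transcript length over all genes, the medians of the same bands were -0.49, -0.63, -0.76 and -0.76 for the members and -0.01, 0.02, -0.01 and 0.01 for all genes. All 81 members were then below 0, beside 49.1% of all genes, with a median of -0.68. edgeR's quasi-likelihood test on these values called 37 members lower at an adjusted p under 0.05 (45.7%), beside 7.82% of all genes, and none higher, beside 6.65%. Called genes included Rps4x (log2 fold change -0.59, adjusted p = 0.024 by edgeR), Rpl7 (-0.74, adjusted p = 0.021 by edgeR), Rpsa (-0.54, adjusted p = 0.025 by edgeR), Rpl36a (-0.87, adjusted p = 0.016 by edgeR) and Rplp0 (-1.16, adjusted p = 0.041 by edgeR). Rpl36 (-1.57, adjusted p = 0.140), Rpl35 (-1.08, adjusted p = 0.277) and Rpl8 (-0.99, adjusted p = 0.089), which had the lowest values before, did not pass. With a replicate block the same offsets gave 47 calls, beside 9.37% of all genes. That block pairs equal replicate numbers, which the labels do not say belong together. Without 5 mM replicate 1 the offsets gave 64 calls, beside 9.89%. Without both that replicate and 25 mM replicate 2 they gave none, beside 0% of all genes, with a median of -0.81 and 74 members lower at an unadjusted p under 0.05, beside 14.6%.

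The range of GC content is wide within the family, as the middle 30 codons of the members at its ends show. In Rpl22l1 (chr3:28805436-28807424, plus strand, GRCm38), whose transcripts are 39.7% GC, these are codons 47 to 76 of 122 and hold 32 G or C among 90 bases. In Rpl36 (chr17:56613416-56614243, plus strand, GRCm38), whose transcripts are 60.8% GC, they are codons 38 to 67 of 105 and hold 54. Capitals mark G and C.
Rpl22l1: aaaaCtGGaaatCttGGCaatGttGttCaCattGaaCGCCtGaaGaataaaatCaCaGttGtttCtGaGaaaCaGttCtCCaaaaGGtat
Rpl36: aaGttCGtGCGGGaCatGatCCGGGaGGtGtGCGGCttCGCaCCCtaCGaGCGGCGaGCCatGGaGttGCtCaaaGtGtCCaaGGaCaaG

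**Figure D3:**
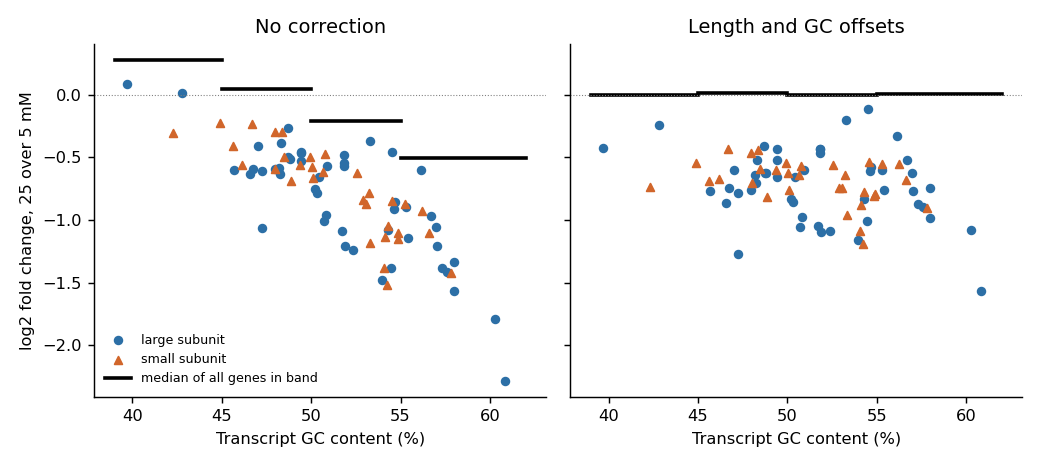
Log2 fold change of 25 mM over 5 mM glucose (vertical axis) against transcript GC content in percent (horizontal axis) for the 81 members, without a correction (left) and with length and GC offsets (right). Circles are large and triangles small subunit genes, and black lines are the medians of all genes tested in each GC band. The members slope down on the left and lie below the black lines in each band in both panels.

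The spread of the members over the 12 libraries was widest for Rpl36 (SD 1.84 on the log2 CPM scale), Rpl35 (1.67), Rpl8 (1.18), Rpl11 (1.16) and Rps26 (1.15), and the spread too followed GC content (Spearman 0.76 across 81 members). Most members varied together from library to library. The median correlation of log2 CPM over the 3240 pairs of members was 0.78, from 12 libraries that share 6 biological replicates, and 277 pairs had a negative one. The 16 members above 55% GC and the 30 under 50% GC went different ways in some libraries. In the b library of 5 mM replicate 1 the median deviation from a gene's own mean over the libraries was -0.95 (log2 scale) for the first group and -0.02 for the second. In the b library of 5 mM replicate 2 the median deviations were 1.37 and 0.03.

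The second comparison set technical replicate b against a within each biological replicate, and no member differed at an adjusted p under 0.05 (edgeR's quasi-likelihood test with the biological replicate as a block), beside 0% of 18725 genes tested. At an unadjusted p under 0.05 there was no member either, beside 1.44% of all genes, and DESeq2 and limma-voom called no member. Members were a little lower in b, with a median log2 fold change of -0.15, beside 0.01 for all genes, and 72 of 81 were below 0, beside 48.7% of all genes. This median depended on the replicate. It was -0.59 in 25 mM replicate 1, where 78 members were lower in b, and -0.34 in 5 mM replicate 1, where 74 were. It was 0.14 in 5 mM replicate 3, where 50 members were higher in b, and between -0.04 and -0.01 in the other replicates.

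Of the 81 members, 4 were lower in b in all 6 pairs (4.94%), beside 0.769% of all genes, namely Rpl23a, Rpl26, Rps24 and Rps4x, and none was higher in all 6, beside 0.721%. Rps24 measured 1170, 928 and 1027 CPM in the a libraries of the 5 mM replicates and 895, 706 and 824 in the b libraries. At 25 mM it measured 621, 1082 and 877 CPM in a and 592, 968 and 774 in b. Its log2 fold change of b over a was -0.25 (SE 0.11, unadjusted p = 0.056 by edgeR). The lowest values of b over a belonged to Rps16 (-0.40, SE 0.19), Rpl26 (-0.28, SE 0.13), Rpl10a (-0.27, SE 0.17), Rps19 (-0.25, SE 0.19) and Rps24. The highest belonged to Rpl7l1 (0.12, SE 0.17), Rpl35 (0.09, SE 0.46), Rpl15 (0.08, SE 0.18), Rpl11 (0.08, SE 0.32) and Rpl28 (0.06, SE 0.23), all within their standard errors of 0.

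The glucose difference had the same median in both sets of libraries but a different spread over the members. In the a libraries alone the median was -0.66 and the members ranged from -1.19 to 0.12. In the b libraries alone the median was -0.66 and the range was from -3.68 to 0.20. Members above 55% GC had a median of -0.77 in a and -1.52 in b, beside -0.37 and -0.64 for all genes in that band, and members under 50% GC had -0.60 in a and -0.38 in b. The Spearman correlation of log2 fold change with GC content was -0.40 in a and -0.77 in b. Calls at an adjusted p under 0.05 (edgeR) were 6 members lower in a, beside 10.1% of all genes, and none in b, beside 0% of all genes. Every 25 mM library was below every 5 mM library in 31 members in a (38.3%), beside 19.6% of all genes, and in 2 members in b (2.47%), beside 7.67%.

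**Figure D4:**
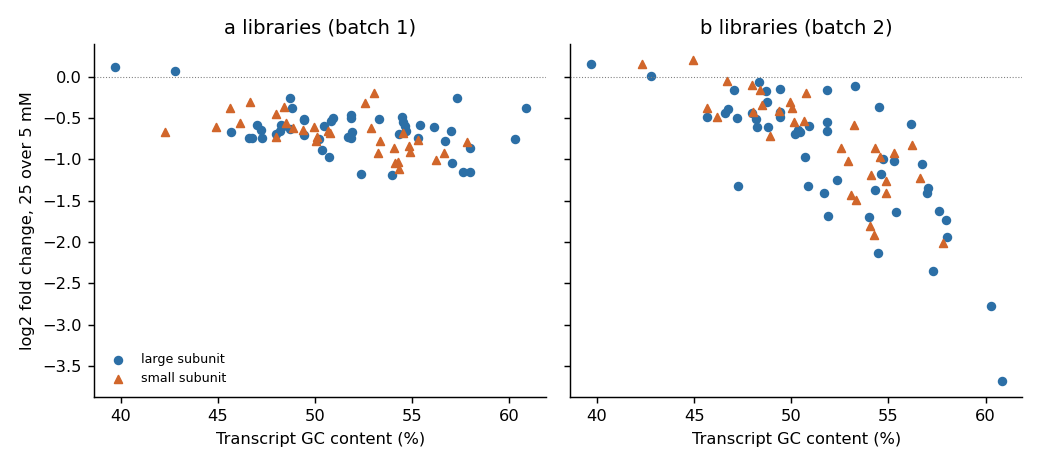
Log2 fold change of 25 mM over 5 mM glucose (vertical axis) against transcript GC content in percent (horizontal axis) for the 81 members, in the a libraries (left) and the b libraries (right). Circles are large and triangles small subunit genes. The values in a stay between -1.19 and 0.12, whereas those in b reach -3.68 at the GC-rich end.

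The difference between a and b in the glucose effect was tested as an interaction, and no member passed an adjusted p under 0.05 (edgeR's quasi-likelihood test), beside 0% of all genes. At an unadjusted p under 0.05 there were 6 members (7.41%), beside 16.3% of all genes: Rplp1, Rpl11, Rps26, Rps29 and Rpl35 with a lower glucose difference in b, and Rps23 with a higher one. Rplp1 measured 34.5, 115 and 49.3 CPM in the a libraries at 5 mM and 58.1, 45.2 and 66.1 at 25 mM, with overlapping groups. In the b libraries it measured 23.3, 243 and 179 CPM at 5 mM and 25.2, 20.7 and 40.5 at 25 mM. Its interaction was -1.83 on the log2 scale (unadjusted p = 0.012 by edgeR).

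The annotated transcripts of the members were a readout that their choice did not use. The transcript table held 501 transcripts of these genes, 235 coding, 176 with a retained intron, 65 other processed transcripts and 25 annotated as targets of nonsense-mediated decay. Transcripts that were not annotated as coding took 17.1%, 13.8% and 13.8% of the members' transcript counts in the 5 mM replicates and 14.7%, 17.6% and 16.4% in the 25 mM replicates. The groups overlapped, with 5 mM replicate 1 and 25 mM replicate 2 highest. Of 72 members with such transcripts and at least 60 counts in each replicate, 59 had a higher mean share at 25 mM (81.9%), beside 75.8% of protein-coding genes. The 25 mM replicates were all above the 5 mM replicates in 13 members (18.1%), beside 25.2% of protein-coding genes, so the members were near the background in both counts. The smallest p of the exact permutation test with 3 replicates per group is 0.1, which cannot pass 0.05.

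Rps24, the most abundant member per length, ends in several ways because 2 short exons near its end can be used or skipped. After exon 4, transcripts Rps24-201 and Rps24-202 go on to an exon at chr14:24495430-24495449 (GRCm38, plus strand, 20 bases in Rps24-202), which opens with a stop codon. Rps24-205 puts an exon of 18 bases before it, at chr14:24494052-24494069, and Rps24-210 skips both. The last 12 bases of exon 4 are in lower case below, and the next 18 in capitals.
Rps24-202: gctggcaaaaagTGAGTGGAGATTGGATAC
Rps24-205: gctggcaaaaagAAATGAAATACCTAGCAG
Rps24-210: gctggcaaaaagCCAAAGGAGTAGATCTGC
Rps24-205, with the inserted exon, took 9.67%, 12.3% and 11.4% of the Rps24 transcript counts in the 5 mM replicates and 14.3%, 12.8% and 13.8% in the 25 mM replicates. The groups did not overlap (p = 0.1 by a two-sided exact permutation test, which can give no smaller value here), although library by library it ran from 9.56% to 12.5% at 5 mM and from 10.2% to 16.5% at 25 mM. Rps24-210 took 1.48%, 4.25% and 4.64% at 5 mM and 1.13%, 0.902% and 1.98% at 25 mM, with 5 mM replicate 1 among the 25 mM values (exact permutation p = 0.2, two-sided). Rps24-202 and Rps24-201 share their exons from exon 2 to the stop codon and differ in where exon 1 starts and in what follows the stop. Rps24-201, which begins at position 24490681 and has no annotated sequence after the stop codon, took 42.8%, 9.26% and 13.4% at 5 mM and 23.1%, 44.9% and 22.4% at 25 mM, and Rps24-202 took 36.6%, 63.9% and 60.3% at 5 mM and 42.6%, 29.7% and 49.6% at 25 mM. The same pair of replicates, 1 at 5 mM and 2 at 25 mM, thus stood apart from the others in this gene. In Rpl14, the share outside coding transcripts was 58.4%, 6.14% and 7.27% at 5 mM and 14.3%, 56.3% and 31.4% at 25 mM, highest in the same 2 replicates.

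**Figure D5:**
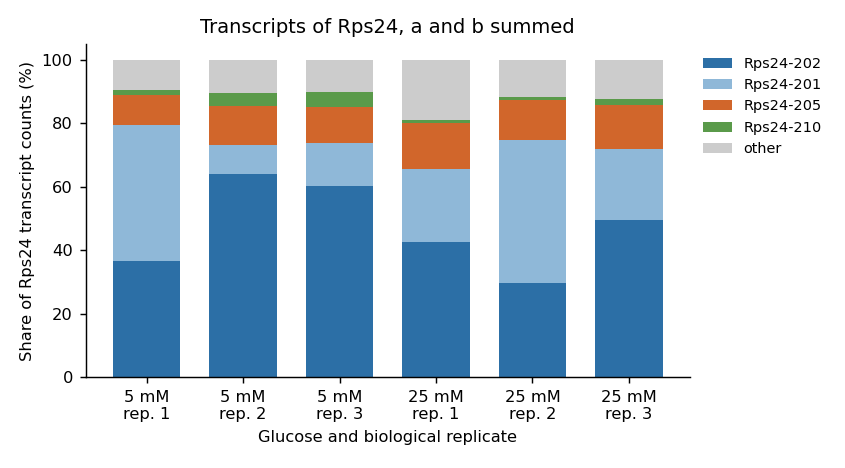
Share of Rps24 transcript counts in percent (vertical axis) on each annotated transcript (colours) in the 6 biological replicates, with a and b summed (horizontal axis). Rps24-201 takes 42.8% in 5 mM replicate 1 and 44.9% in 25 mM replicate 2, and at most 23.1% in the others.

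Among other genes of the translation machinery, those with TOP mRNAs passed an unadjusted p under 0.05 lower at 25 mM more often than all genes. At that level the other lists did not, or did little more often, but most leaned below 0. Below 0 were 34 of 41 ribosome biogenesis genes and 67 of 78 mitochondrial ribosomal protein genes, beside 50.7% of all genes. So were 14 of 19 mTORC1 genes, 10 of 14 RNA polymerase I genes and 4 of 9 host genes of small nucleolar RNAs. No gene of these lists passed an adjusted p under 0.05 (edgeR) without a correction, and with length and GC offsets some did. Of 21 translation factors and related genes with TOP mRNAs, 20 were below 0 with a median log2 fold change of -0.56, and 11 were lower at an unadjusted p under 0.05 (52.4%), beside 15.5% of all genes. The elongation factor Eef2 had a log2 fold change of -1.50 (SE 0.48), the ribosome-bound scaffold Rack1 one of -1.10 (SE 0.31) and the exchange factor subunit Eef1d one of -0.99 (SE 0.35). With length and GC offsets these were -0.91, -1.03 and -0.69, and 8 of the 21 were called lower, Rack1 among them, beside 7.82% of all genes. In the 41 ribosome biogenesis genes the median was -0.29, and the 3 lower at an unadjusted p under 0.05 (7.32%), namely Bop1 (-0.99), Fbl (-0.82) and Rrp1 (-0.48), were fewer than the background share of 15.5%. With offsets those genes were at -0.37, -0.39 and -0.09, and 1 gene of the list was called lower, Npm1 (-0.70), named after its values were seen.

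The 78 mitochondrial ribosomal protein genes had a median of -0.24 and 5 lower at an unadjusted p under 0.05 (6.41%), again a share under the background, among them Mrpl12 (-1.12), Mrpl17 (-0.75) and Mrps6 (-0.70). With offsets these were -0.63, -0.75 and -0.76, and 3 genes of the list were called lower: Mrps6 and, named after their values were seen, Mrpl35 and Mrps14. The 14 subunits and factors of RNA polymerase I, which makes ribosomal RNA, had a median of -0.23 and 1 gene lower at that level (7.14%), Ubtf, at -0.53 without and -0.15 with offsets. The 19 genes of mTORC1 and its control of translation had a median of -0.33 with 4 lower (21.1%), among them the translation repressor Eif4ebp1 (-1.33, and -1.21 with offsets), the Eef2 kinase Eef2k (-0.85 and -0.62) and the mTORC1 inhibitor Sesn2 (-0.78 and -0.16). The 9 host genes of small nucleolar RNAs had a median of 0.01 and none at that level. With length and GC offsets the medians were -0.49 for the TOP list, -0.23 for biogenesis, -0.18 for mitochondrial ribosomal proteins, -0.15 for RNA polymerase I, -0.09 for mTORC1 and -0.21 for the host genes, beside -0.68 for the ribosomal protein genes. None of the last 3 lists had a call with offsets.

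Of the markers of retinal cell types, 6 of the rod list, 1 of the cone list and 1 of the vascular list were higher at 25 mM at an adjusted p under 0.05 (edgeR), beside 1.47% of all genes. None was lower in that fit, beside 0.513%. With length and GC offsets 11 rod, 3 cone, 1 Müller glia and 1 vascular marker were called higher, beside 6.65% of all genes. Called lower were 3 amacrine, 3 vascular and 1 each of the cone, Müller glia, bipolar, ganglion cell and microglial markers, beside 7.82%. The microglial median was -0.77 with offsets. The values that follow are without offsets. All 14 rod photoreceptor markers were above 0, with a median log2 fold change of 1.02, and their summed level was 3952 to 7154 CPM in the 5 mM libraries and 5783 to 15199 in the 25 mM libraries. All 10 microglial markers were below 0 (median -1.14), 7 of them at an unadjusted p under 0.05 beside 15.5% of all genes, with sums of 224 to 511 CPM at 5 mM and 126 to 328 at 25 mM. Of 11 vascular markers 9 were below 0 (median -1.46), 8 of them at an unadjusted p under 0.05, with sums of 752 to 2583 CPM at 5 mM and 654 to 1422 at 25 mM. The gene of the vascular list called without offsets, Vtn, went the other way (1.32, adjusted p = 0.048 by edgeR). Which cells held its RNA was not measured. The vascular median was -2.47 in the a libraries and -0.58 in the b libraries, and the microglial one -1.45 and -0.86. Medians of the other neurons and glia differed between the sets: 0.92 in a and 0.19 in b for 8 cone markers, 1.15 and -0.34 for 8 bipolar, -0.45 and 0.14 for 8 Müller glia, -0.02 and -0.57 for 8 amacrine, and 0.32 and -0.34 for 9 ganglion cell markers. With a and b summed they were 0.48, 0.40, -0.19, -0.15 and 0.17. Of 9 markers of the removed pigment epithelium, Rlbp1, which Müller glia also express, measured 224 to 414 CPM at 5 mM and 196 to 291 at 25 mM, and the other 8 together 7.11 to 13.1 and 4.59 to 8.62. Of 5 erythroid markers 2 passed the filter (median 0.09). The part of these cells in the level of the ribosomal protein genes was not tested.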

How the data were processed

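RNA was measured in 12 libraries, with 3 biological replicates per group that were each sequenced as technical replicates a and b. The libraries were made from 4 ng of total RNA with a stranded kit and 13 PCR cycles, and sequenced as pairs of 101 bases. The authors deposited estimated counts (expected counts) per gene and per transcript, with no normalization between libraries; the labels name the build GRCm38, and the counting tool is not given in the sources used here. Gene symbols, positions, length and GC content came from GENCODE M21 (90.8% of gene identifiers matched). Gene values were not sums of transcript values (median ratio 0.996).

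Technical replicates were summed and rounded, genes were filtered with filterByExpr, scaled with TMM and tested with the legacy quasi-likelihood method of edgeR 4.0.16 in R 4.3.3, with Benjamini-Hochberg adjustment over all genes. Alternatives used DESeq2 1.42.0, limma 3.58.1, other scalings and filters, each batch, a replicate block, and spline offsets per library for transcript length and GC content. Total gene counts were between 14815285 and 36692484 per library. In simulated counts with the common spread of the glucose comparison for every gene (21176 genes), changes of 1.5 on the log2 scale were recovered in 72 of 100 genes. The simulation held no trend with GC content and no replicate that stood apart, so this share does not carry over to the members. The members and lists were chosen with earlier results of these data known. Members with values in the text were taken by rule: the 6 highest TPM, the 5 highest and lowest values of each comparison, paralog pairs, the stalk genes and Rpsa, the 5 widest spreads, members under the filter, and in each other list up to 3 genes with the largest change at an unadjusted p under 0.05; those of the cell type lists were left out.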

Additional observations from a re-analysis of the deposited data

Results flagged for a closer look

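Among the 66 groups of 6 libraries checked for a value far from the rest, 5 held one, and chance marks about 1 group in 20. At 5 mM glucose the a library of replicate 1 was high in Rpl10 (332.8 CPM beside a group median of 172.7), Rpl22l1 (158 beside 83.6) and Rpl39 (472.1 beside 333.1). At 25 mM glucose the a library of replicate 1 was high in Rpl35 (36.88 CPM beside 9.114), and its b library was low in Rpl36a (73.05 beside 106.3). The libraries a and b of a replicate share their source, so the 6 values of a group are not independent.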

How the results depend on the processing

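The median log2 fold change of the members for glucose (-0.67) stayed below 0 under the 25 alternatives, between -0.91 and -0.54. Leaving out 1 replicate at a time gave -0.85 to -0.54. The count of members called moved from 0 to 22 with DESeq2, 14 with no filter, 32 with 12 libraries and a batch term (a fit that treats a and b as independent), 6 in batch 1 alone, 1 with a replicate block, 37 with length and GC offsets and 47 with the replicate block and these offsets together; leaving out 1 replicate gave 0 to 59. Alternatives chosen after the data were seen gave 17 calls without 1 replicate per group, 64 without 5 mM replicate 1 and with the offsets, and none with length offsets only. The share outside coding transcripts was higher at 25 mM by 1.29 percentage points, and by 0.60 to 2.40 without 1 replicate. The median of b over a (-0.15) ran from -0.20 to -0.05 without 1 replicate, and no alternative called a member for b against a or for the interaction. The labels do not say that equal replicate numbers, which the replicate block pairs, belong together. Deviations of equal numbers from their group means correlated at -0.01, -0.45 and 0.28, and 5 mM replicate 1 with 25 mM replicate 2 at 0.51. With 3 replicates per group, these correlations cannot show whether the samples were paired. Of 800 values of named members under alternatives, 684 kept sign and side of the threshold, 98 became called and 18 changed sign. Without 1 replicate Rpl22l1 ran from -0.13 to 0.39, Rpl5 from -0.14 to 0.26 and Rps27l from -0.39 to 0.015. Rpl22l1 became -0.43 with the offsets, -0.43 with the block and offsets, -0.09, -0.03 and -0.13 without 5 mM replicate 2, 5 mM replicate 3 and 25 mM replicate 2, and -0.43 and -0.37 in the offset fits with fewer replicates. Rpl5 became -0.0016 with no filter, -0.24 and -0.24 with the same offset fits, -0.14, -0.07 and -0.10 without the same replicates, and -0.22 and -0.19 with fewer replicates. Rps26 became 0.52 on coding transcripts, and Rps27l 0.20 in batch 2 alone and 0.015 without 25 mM replicate 1. The cause was not tested.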
